A study of Mus musculus with 12 samples.

Results

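The 9 genes described here, Zscan4c, Zscan4d, Zfp352, Tcstv1, Tcstv3, Tdpoz1, Tdpoz4, Usp17la and Usp17lc, are genes of the two-cell-like state of mouse embryonic stem cells. They were found by symbol in the platform annotation, and they are 9 of 22180 named genes tested. The annotation placed 12 of 41345 transcript clusters on them. Of these, 9 clusters carry 1 of the genes alone, and each gene has 1 such cluster. The other 3 are shared: 2 clusters carry all 6 genes Zscan4a to Zscan4f, and 1 carries Tdpoz9 with Tdpoz1. Shared clusters stayed out of the table of genes and are given beside it. All 9 genes are protein coding in RefSeq's annotation of GRCm38.p6 and lie on 4 chromosomes: Zscan4c (chr7:11005745-11010547) and Zscan4d (chr7:11161643-11166148), Usp17lc (chr7:103416696-103419174) and Usp17la (chr7:104857016-104862667), Tdpoz1 (chr3:93669333-93676283) and Tdpoz4 (chr3:93796398-93797510), Tcstv1 (chr13:119893387-119894785) and Tcstv3 (chr13:120316862-120318261), and Zfp352 (chr4:90218820-90225687).

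The study asked which genes depend on LOXL2, a lysyl oxidase family member, when mouse embryonic stem cells differentiate with RA, read here as retinoic acid. All cells were of the E14 line and carried a transduced short hairpin RNA, either against LOXL2 (shLOXL2) or a control (shCT). The 4 groups were shLOXL2 cells with RA at day 1, shLOXL2 cells without RA at day 0, shCT cells with RA at day 1 and shCT cells without RA at day 0, with 3 arrays each and 12 in all. Day 1 was sampled with RA only, so RA and 1 day of culture cannot be told apart in any RA difference below. The control hairpin is itself transduced, and no untransduced cells were used here. The arrays of a group are numbered 1 to 3 in the labels, but nothing says that they were cultured apart. The p-values therefore rest on the spread of these arrays alone, part of which may be technical. The number of arrays limits the precision.

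Cultures of mouse embryonic stem cells hold at any time a small share of cells in a state that resembles the embryo when its own genome is first switched on. These cells transcribe genes and retroviral elements that are otherwise restricted to the early embryo, and cells enter and leave the state continuously. The transcription factor Dux turns on many of its genes, Dppa2 and Dppa4 act upstream of Dux, and chromatin regulators such as chromatin assembly factor 1 hold the state down. Zscan4 genes encode zinc finger proteins with a SCAN domain that act in telomere maintenance, and they mark the state in reporter lines. Zfp352 encodes another zinc finger protein of the early embryo. Tcstv1 and Tcstv3 belong to a family named for variable expression at this stage. Tdpoz1 and Tdpoz4 encode proteins with a TRAF and a POZ domain. Usp17la and Usp17lc encode deubiquitinating enzymes of the Usp17-like family.

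Several of these genes are close copies of each other, which the sequences before their starts show. Of the 9 genes, 7 have an upstream window in RefSeq's annotation of GRCm38.p6, and the windows of the Zscan4 pair and the Usp17-like pair are shown because the members of each pair varied together between arrays. All lie on chromosome 7 and end at the base before the annotated start. The Zscan4c window is chr7:11005495-11005744 (plus strand), that of Zscan4d chr7:11166149-11166398 (minus strand), that of Usp17la chr7:104856866-104857015 (plus strand) and that of Usp17lc chr7:103416546-103416695 (plus strand), with 250 bases for each Zscan4 gene and 150 for each Usp17-like gene. Capitals mark 2 motifs, searched on both strands: TGATTCAAT, a shortened form of the mouse Dux motif, which contains it, and TATAAA, the core promoter element that binds the TBP protein.
Zscan4c: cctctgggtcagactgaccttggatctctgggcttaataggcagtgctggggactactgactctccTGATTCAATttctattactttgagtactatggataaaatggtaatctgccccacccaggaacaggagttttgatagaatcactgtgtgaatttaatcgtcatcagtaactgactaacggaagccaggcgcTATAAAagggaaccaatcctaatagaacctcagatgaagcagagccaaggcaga
Zscan4d: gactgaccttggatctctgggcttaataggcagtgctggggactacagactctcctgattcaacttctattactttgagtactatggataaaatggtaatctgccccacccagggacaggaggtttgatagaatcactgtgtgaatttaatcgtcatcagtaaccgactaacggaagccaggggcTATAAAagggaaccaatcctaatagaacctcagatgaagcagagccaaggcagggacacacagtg
Usp17la: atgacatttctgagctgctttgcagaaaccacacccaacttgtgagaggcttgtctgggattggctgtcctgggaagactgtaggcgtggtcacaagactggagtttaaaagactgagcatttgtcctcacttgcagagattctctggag
Usp17lc: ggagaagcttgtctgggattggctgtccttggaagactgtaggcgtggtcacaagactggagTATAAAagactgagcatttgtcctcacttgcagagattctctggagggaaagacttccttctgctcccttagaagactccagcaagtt
The Zscan4c and Zscan4d windows matched at 232 of 239 aligned positions (97.1%), and those of Usp17la and Usp17lc, over their full 250 bases, at 198 of 208 (95.2%). TGATTCAAT was found in the window of Zscan4c, at -184 counted from the start, and in 0.11% of all 32851 windows of 250 bases. The full Dux motif was found in none of the 7 windows and in 0.00913% of all windows. TATAAA was found at -54 in Zscan4c, at -65 in Zscan4d and at -88 in Usp17lc, and in 12.4% of all windows. These matches describe letters only, and no binding was measured. Probe sequences were not used here, so the signals of such copies cannot be told apart, and the Zscan4 values below may each hold signal of several Zscan4 genes.

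Checks of the arrays were made first. The median signal of an array ranged from 4.58 to 4.68 (log2, where 1 unit is a doubling). No background level was set here, and Zfp352, Tcstv1, Tdpoz1, Tdpoz4 and Usp17lc had means below the array medians, where part of a signal may be background and a difference may be understated. Stem cell markers were bright on every array: Pou5f1 lay between 7.08 and 7.87, Sox2 between 9.53 and 10.64 and Nanog between 9.19 and 10.21. The RA label was borne out by 8 of 8 measured RA targets, with Stra8 higher by 5.09 ± 0.11 and Hoxb1 by 4.07 ± 0.15 (log2, SE) on average over both constructs. Loxl2 is measured by 2 clusters, each shared with Gm21451. In the first, log2 signals were 5.14, 5.30 and 5.10 in shLOXL2 cells with RA, against 5.85, 5.90 and 6.51 in shCT cells with RA. Without RA they were 4.79, 4.96 and 5.06 in shLOXL2 cells, against 5.64, 5.17 and 5.71 in shCT cells, and the constructs did not overlap in either state. In the second they were 5.06, 4.69 and 4.64 in shLOXL2 cells with RA, against 5.77, 5.60 and 6.27 in shCT cells with RA, without overlap, but 4.58, 4.69 and 5.03 in shLOXL2 cells without RA, against 4.92, 4.58 and 5.27 in shCT cells without RA, where the constructs overlapped. Neither cluster passed the adjusted threshold for knockdown (limma over all clusters, adjusted p = 0.28 and 0.543 on average over both RA states).

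Of the 9 genes, 7 varied together between arrays of the same group, and most of that variation rested on 1 pair of arrays, those numbered 1 in the shLOXL2 groups. Zscan4c gave log2 signals of 9.95, 8.35 and 8.35 in shLOXL2 cells with RA, 8.82, 7.13 and 7.27 in shLOXL2 cells without RA, 8.33, 8.48 and 8.54 in shCT cells with RA, and 6.77, 7.32 and 7.57 in shCT cells without RA. The number 1 array stood 3.03-fold above the mean of the other 2 arrays in shLOXL2 cells with RA and 3.07-fold above it without RA, while the 3 shCT arrays with RA lay within 1.16-fold of each other. Zscan4d gave 9.52, 7.93 and 7.67 in shLOXL2 cells with RA, 8.74, 7.28 and 6.63 in shLOXL2 cells without RA, 7.96, 7.88 and 7.94 in shCT cells with RA, and 6.51, 6.71 and 7.21 in shCT cells without RA. Its number 1 arrays stood 3.29-fold above the mean of the other 2 in shLOXL2 cells with RA and 3.44-fold above it without RA. Both shared Zscan4 clusters had the same arrays on top. The dimmer of them gave 10.78 on the number 1 array against 9.12 and 9.08 on the others in shLOXL2 cells with RA, and 9.82 against 8.05 and 7.97 without RA.

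**Figure D1:**
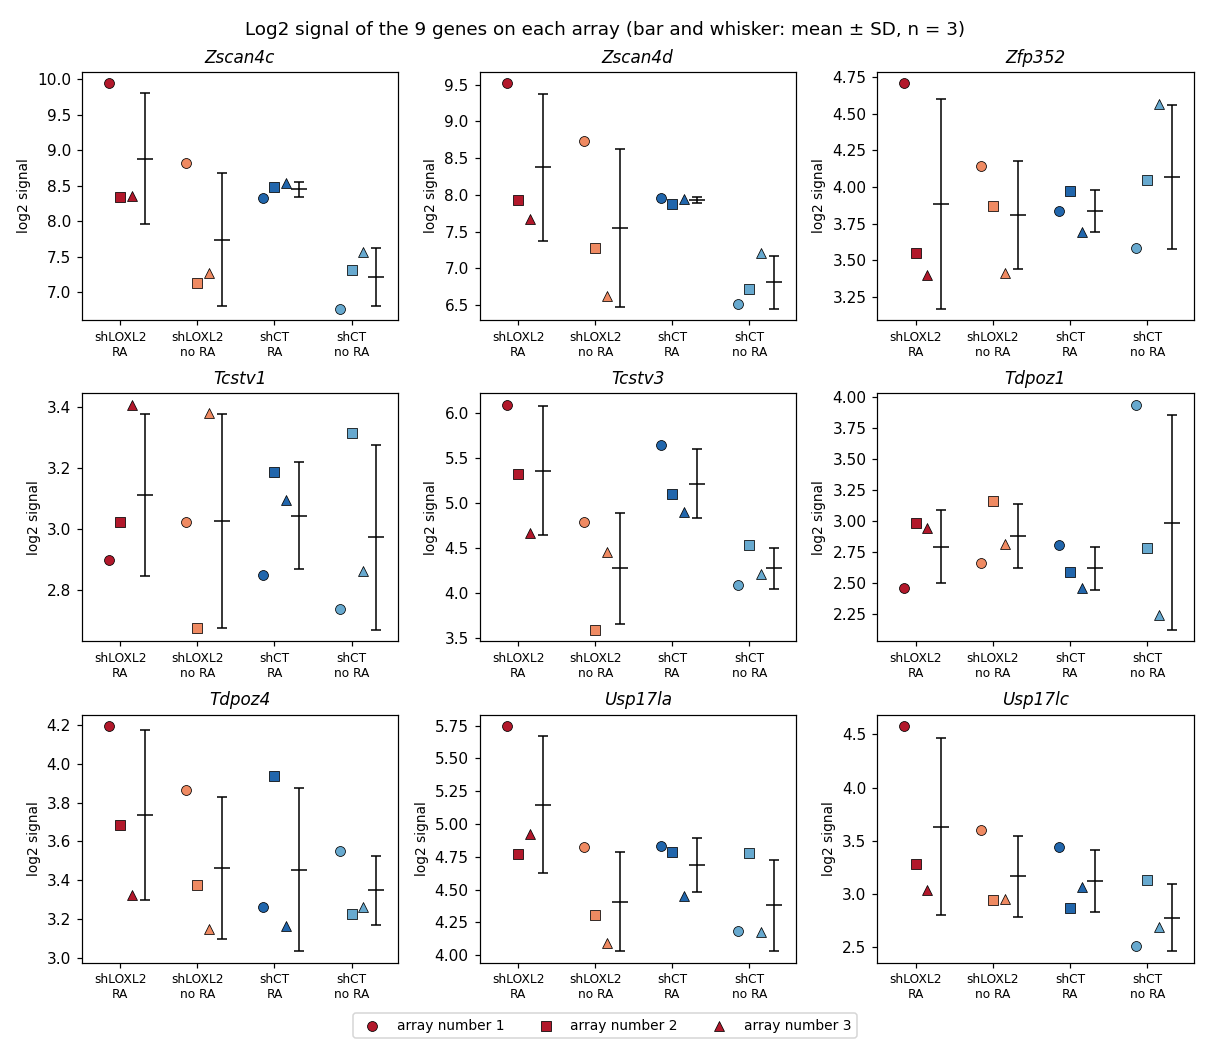
Log2 signal (vertical axis) of each of the 9 genes on every array, in shLOXL2 cells with and without RA and shCT cells with and without RA; symbols give the array number, and bars with whiskers the mean ± SD (n = 3). The circles of both shLOXL2 groups are the highest of their group for 7 of the 9 genes, at 9.95 and 8.82 for Zscan4c, while Tcstv1 and Tdpoz1 lack that pattern.

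The genes outside the Zscan4 family that shared this pattern did so by smaller amounts. Zfp352 gave 4.71, 3.55 and 3.40 in shLOXL2 cells with RA, 4.14, 3.87 and 3.41 in shLOXL2 cells without RA, 3.84, 3.98 and 3.69 in shCT cells with RA, and 3.58, 4.05 and 4.57 in shCT cells without RA. Its high arrays were thus number 1 in shLOXL2 cells and number 3 in shCT cells without RA. Tcstv3 gave 6.09, 5.32 and 4.66 in shLOXL2 cells with RA, 4.78, 3.58 and 4.45 in shLOXL2 cells without RA, 5.64, 5.10 and 4.90 in shCT cells with RA, and 4.08, 4.53 and 4.21 in shCT cells without RA. Usp17la gave 5.75, 4.77 and 4.92 in shLOXL2 cells with RA, 4.82, 4.30 and 4.09 in shLOXL2 cells without RA, 4.83, 4.79 and 4.45 in shCT cells with RA, and 4.18, 4.78 and 4.18 in shCT cells without RA. Both genes were highest of all 12 arrays on the number 1 array of shLOXL2 cells with RA. Usp17lc gave 4.58, 3.28 and 3.04 in shLOXL2 cells with RA, 3.6, 2.94 and 2.95 in shLOXL2 cells without RA, 3.44, 2.87 and 3.07 in shCT cells with RA, and 2.51, 3.13 and 2.69 in shCT cells without RA. Tdpoz4 gave 4.2, 3.69 and 3.32 in shLOXL2 cells with RA, 3.87, 3.37 and 3.15 in shLOXL2 cells without RA, 3.26, 3.94 and 3.16 in shCT cells with RA, and 3.55, 3.23 and 3.26 in shCT cells without RA. On the number 1 arrays of shLOXL2 cells these 5 genes stood above the mean of the other arrays by 1.62-fold (Tdpoz4) to 2.68-fold (Usp17lc) with RA, and by 1.42-fold (Zfp352) to 1.70-fold (Tcstv3) without RA.

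Tcstv1 and Tdpoz1 went their own way. Tcstv1 gave 2.90, 3.02 and 3.41 in shLOXL2 cells with RA, 3.02, 2.68 and 3.38 in shLOXL2 cells without RA, 2.85, 3.19 and 3.1 in shCT cells with RA, and 2.74, 3.32 and 2.86 in shCT cells without RA, a narrow range at the dim end of the arrays. Tdpoz1 gave 2.46, 2.99 and 2.94 in shLOXL2 cells with RA, 2.66, 3.16 and 2.82 in shLOXL2 cells without RA, 2.81, 2.59 and 2.46 in shCT cells with RA, and 3.94, 2.78 and 2.25 in shCT cells without RA. Its number 1 arrays were the lowest of both shLOXL2 groups, and its spread was widest in shCT cells without RA, at 3.24-fold. The cluster that carries Tdpoz9 with Tdpoz1 behaved otherwise: it gave 5.04, 3.75 and 3.77 in shLOXL2 cells with RA and 4.76, 3.73 and 3.86 in shLOXL2 cells without RA. There the number 1 arrays stood 2.43-fold above the mean of the others with RA and 1.95-fold without RA.

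Counted over the genes, the number 1 array was the highest of its group in both shLOXL2 groups for 7 of 9, against 19.8% of all 22180 genes. Within a single group that share of all genes was 33.4% with RA and 34.6% without RA. Each of these arrays had 7 of the 9 genes above the group mean, the other 4 shLOXL2 arrays 1 or 2, and the 6 shCT arrays 2 to 6. On both number 1 arrays the signal of the first Loxl2 cluster lay with that of the other shLOXL2 arrays and below every shCT array of the same RA state.

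**Figure D2:**
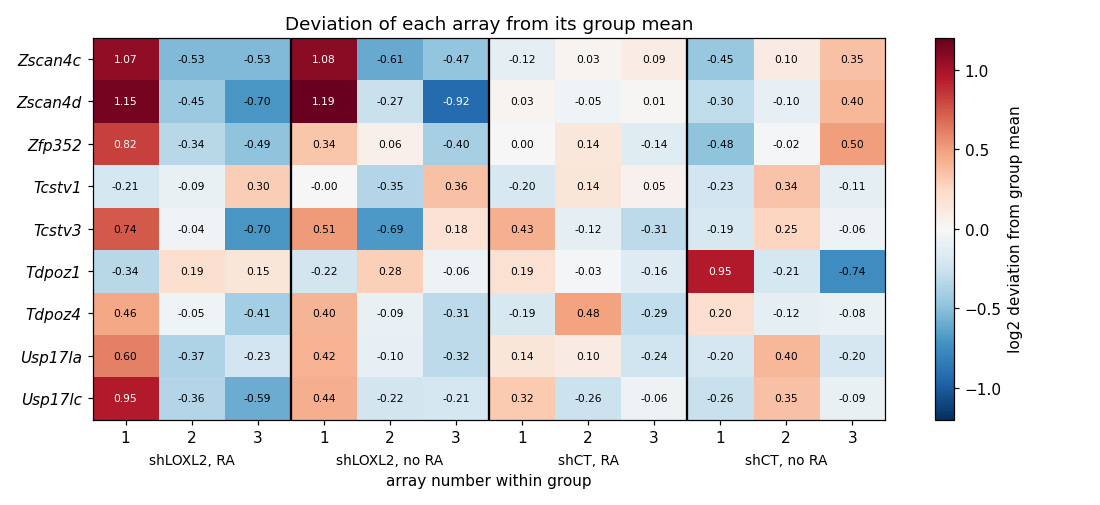
Deviation of each array (columns, by group and array number) from its group mean for each gene (rows), in log2 units, coloured and printed. Both shLOXL2 columns of number 1 are red for 7 of 9 genes, up to 1.19 for Zscan4d, and Tdpoz1 reaches 0.95 on number 1 of shCT without RA.

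Pooled over the 4 groups, the spread within groups was large for most of these genes. The residual SD over the 4 groups was 0.76 for Zscan4d and 0.69 for Zscan4c on the log2 scale, larger than in 99.7% and 99.5% of all genes. It was 0.52 for Tcstv3, 0.50 for Usp17lc, 0.48 for Tdpoz1 and 0.48 for Zfp352, each above the 95th percentile of all genes (0.41). Usp17la (0.38), Tdpoz4 (0.37) and Tcstv1 (0.28) lay below that percentile but above the median of all genes (0.20). Dim genes vary more on arrays, but among genes of like brightness the percentiles were still 99.3 for Zscan4c, 99.5 for Zscan4d, 99.1 for Zfp352, 99.0 for Usp17lc and 98.8 for Tdpoz1, against 75.8 for Tcstv1.

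Across the 12 arrays, deviations from the group means correlated in most pairs of these genes. The median Pearson r of the 36 pairs was 0.57 (median Spearman rho 0.46), 21 pairs were above 0, and 11.6% of all pairs of genes reached that median, the median over all pairs being 0.02. Among the 7 genes other than Tcstv1 and Tdpoz1, a set named after the values were seen, all 21 pairs lay between 0.475 and 0.949. The closest pairs were Zscan4c with Zscan4d (r = 0.949, rho = 0.839), Usp17la with Usp17lc (r = 0.881, rho = 0.706), Zscan4d with Zfp352 (r = 0.870, rho = 0.853) and Tcstv3 with Usp17lc (r = 0.848, rho = 0.762). Tdpoz1 ran opposite to Zscan4c (r = -0.624, rho = -0.846) and to Zfp352 (r = -0.679, rho = -0.622), and Tcstv1 was below 0 with each of the other 8 genes. These correlations share arrays and 4 fitted means and are given as a description.

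Most of that joint variation rested on both number 1 arrays of shLOXL2 cells. Without them, over 10 arrays, the median r of the 36 pairs was 0.0323, 20 pairs were above 0, and 49% of all pairs of genes reached that median. The 21 pairs of the 7 genes then lay between -0.475 and 0.888. A few pairs stayed high: Zscan4d with Zfp352 at 0.888, Zscan4c with Zfp352 at 0.727, Tcstv3 with Usp17lc at 0.653, Usp17la with Usp17lc at 0.598 and Zscan4c with Zscan4d at 0.506. Zscan4c with Usp17la fell to 0.027, against 0.781 with all arrays. Zscan4c and Tdpoz1 reached -0.997. On these 10 arrays Zscan4c differed within groups mainly among the shCT arrays without RA (6.77, 7.32 and 7.57), so its correlations rest largely on that group.

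**Figure D3:**
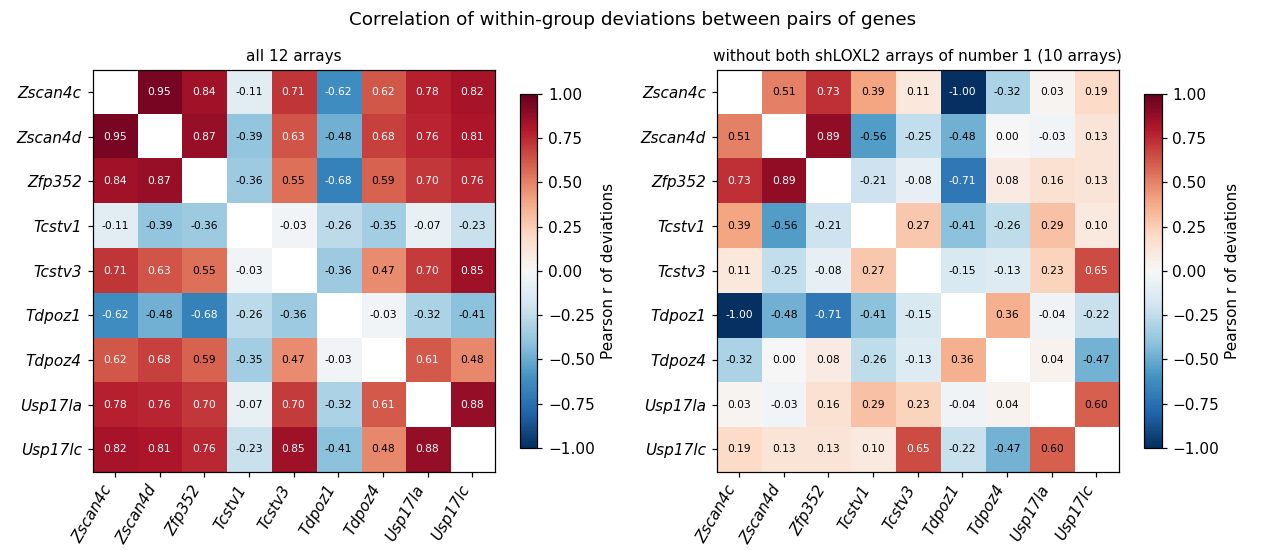
Pearson r of within-group deviations for each pair of the 9 genes over all 12 arrays (left) and over the 10 arrays without both shLOXL2 arrays of number 1 (right); colour and number give r. The block of high values on the left, up to 0.949 for Zscan4c with Zscan4d, is reduced on the right to a few pairs such as Zscan4d with Zfp352 (0.888).

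A broader shift of the arrays moved with some of these genes. The first principal component of the within-group deviations of all other genes, called the main axis here, held 49.4% of the within-group variance. The number 1 arrays of shLOXL2 cells lay high on it (0.36 with RA and 0.39 without RA), but so did number 3 of shCT cells (0.27 with RA and 0.44 without RA), and number 1 of shCT cells without RA lay lowest, at -0.50. Deviations on this axis correlated at 0.83 with those of Zscan4c, 0.80 with Zfp352 and 0.78 with Zscan4d, at 0.59 with Usp17lc, 0.50 with Usp17la, 0.38 with Tcstv3, 0.23 with Tdpoz4 and -0.04 with Tcstv1, and at -0.86 with Tdpoz1. The 2 shCT arrays that lay high on the axis did not carry the whole set: number 3 of shCT cells had 3 of the 9 genes above the group mean in each RA state. With the axis taken out of each gene, the median r of the 36 pairs was 0.55 and 27 were above 0, and the 21 pairs of the 7 genes lay between 0.433 and 0.861. Tdpoz1 then no longer ran opposite to Zscan4c (r = 0.328), Zfp352 (0.014) or Zscan4d (0.605). It stayed below 0 only with Tcstv3 (-0.081) and Tcstv1 (-0.574). The values with the axis taken out still include both number 1 arrays of shLOXL2 cells. No share of all pairs of genes was computed with the axis taken out. The axis was thus not separated from these arrays, and what it reflects was not tested.

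**Figure D4:**
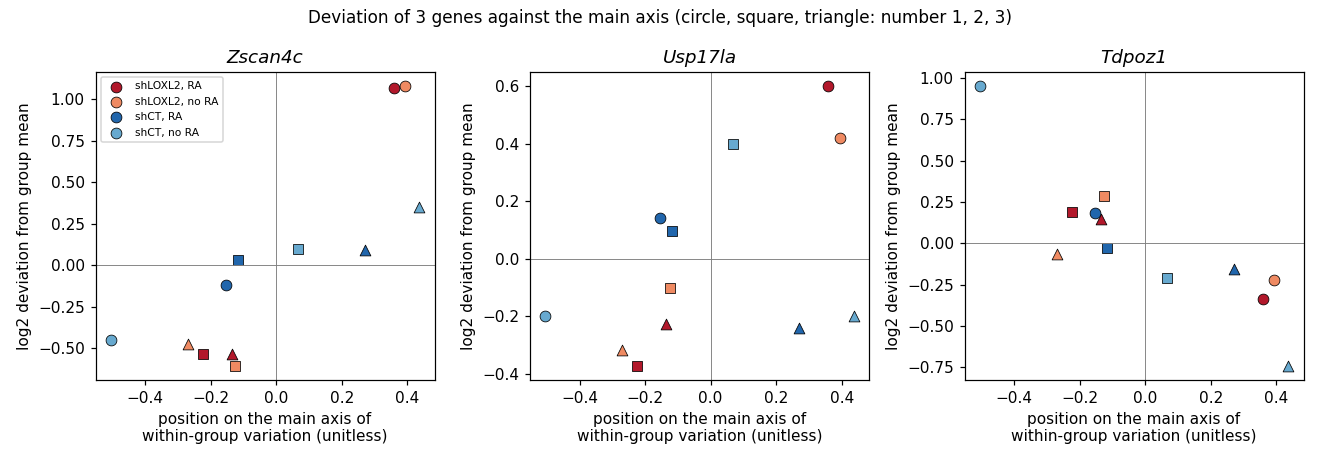
Log2 deviation from the group mean (vertical axis) of Zscan4c, Usp17la and Tdpoz1 against the position of each array on the main axis of within-group variation (unitless), coloured by group, with symbols for array numbers. Zscan4c follows the axis (r = 0.83) with both shLOXL2 arrays of number 1 at the top, Usp17la follows it less (r = 0.50), and Tdpoz1 runs opposite (r = -0.86).

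The fit across all genes asked which of them followed Zscan4c between arrays of the same group, with limma and Benjamini-Hochberg adjustment over 22179 genes and a threshold of 0.05. Of the other 8 genes, 5 rose with Zscan4c and none fell, against 11.1% of all genes called in either direction and 6.51% called upward. Per log2 unit of Zscan4c, Zscan4d was higher by 1.04 ± 0.11 (SE, limma adjusted p = 0.00056), Usp17lc by 0.60 ± 0.13 (adjusted p = 0.0147), Zfp352 by 0.58 ± 0.12 (adjusted p = 0.013), Tcstv3 by 0.54 ± 0.16 (adjusted p = 0.0437) and Usp17la by 0.43 ± 0.11 (adjusted p = 0.0292). Tdpoz4 (0.33 ± 0.13), Tdpoz1 (-0.44 ± 0.16) and Tcstv1 (-0.04 ± 0.13) did not pass. With the main axis as a covariate none of the 8 passed (0.198% of all genes called, 0.122% upward), with larger SEs: Zscan4d stood at 1.06 ± 0.21 (limma adjusted p = 0.0866), Tcstv3 at 0.996 ± 0.249 (0.167), Usp17lc at 0.79 ± 0.23 (0.233), Usp17la at 0.66 ± 0.19 (0.229) and Zfp352 at 0.40 ± 0.21 (0.557), and the median over the 8 was 0.71, against 0.49 without the axis. Tested over all clusters, the shared Zscan4 clusters gave 1.10 and 1.01, but they carry Zscan4c itself, so these slopes show no separate gene following it. The signal of Zscan4d, a close copy, may also hold Zscan4c signal. The cluster of Tdpoz9 with Tdpoz1 gave 0.60 (limma adjusted p = 0.0277). Without both shLOXL2 arrays of number 1, none of the 8 genes rose and Tdpoz1 fell (-2.09, limma adjusted p = 0.0057, with 8.47% of all genes called, 2.57% downward). Zscan4c then deviated mainly among the shCT arrays without RA (by -0.45, 0.10 and 0.35). Those arrays lay in the same order on the main axis (-0.50, 0.07 and 0.44). Slopes on Zscan4c without both number 1 arrays, here and below, thus rest largely on that group and cannot be told apart from the axis. Leaving out only number 1 of shLOXL2 cells with RA ended the calls of Zfp352 (limma adjusted p = 0.12), Usp17lc (0.156), Usp17la (0.206) and Tcstv3 (0.253), and leaving out only number 1 without RA ended those of Usp17lc (0.0588), Usp17la (0.124) and Tcstv3 (0.147). Usp17la also lost its call without number 3 of shLOXL2 cells without RA and without number 2 or 3 with RA, and Tcstv3 without 6 further arrays of the 12, with adjusted p-values up to 0.0926.

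With RA, Zscan4c and Tcstv3 rose on average over both constructs. Zscan4c was 2.28-fold higher (log2 change 1.19 ± 0.32, SE, limma adjusted p = 0.0285), and Tcstv3 was 2.02-fold higher (1.01 ± 0.24, limma adjusted p = 0.0165). These 2 of 9 genes compare with 10.3% of all genes called in either direction and 5.52% called upward. Exact relabelling of RA within each construct gave two-sided p-values of 0.015 for Zscan4c and 0.01 for Tcstv3, where 0.005 is the smallest that 400 relabellings allow. Zscan4d (0.97 ± 0.35, limma adjusted p = 0.102), Usp17la (0.53 ± 0.18, 0.0958) and Usp17lc (0.41 ± 0.24, 0.35) did not pass, and the remaining 4 changes lay between -0.23 for Tdpoz1 and 0.19 for Tdpoz4. The median change of the 9 genes was 0.41, against -0.01 for all genes. Without both shLOXL2 arrays of number 1, 3 genes rose: Zscan4c by 1.19 (limma adjusted p = 0.00033), Zscan4d by 0.98 (0.0025) and Tcstv3 by 0.96 (0.0132), against 9.9% of all genes called and 4.97% upward. The call of Zscan4c was lost, at adjusted p-values of 0.0536 to 0.0798, when number 1 or 2 of shCT cells without RA, any array of shCT cells with RA, or number 2 or 3 of shLOXL2 cells without RA was left out. Over all transcript clusters, where more features are tested, neither passed (limma adjusted p = 0.0847 for Zscan4c and 0.0548 for Tcstv3), nor did the shared Zscan4 clusters, with changes of 1.15 and 1.09 (0.134 and 0.124). With construct and number as a fixed block, 4 of 9 rose, Zscan4c, Tcstv3, Zscan4d (limma adjusted p = 0.00016) and Usp17la (0.00586), while 16.6% of all genes were called, 8.99% upward. In bulk RNA, more cells in the state and more RNA per cell cannot be told apart.

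In shLOXL2 cells alone, every array with RA was above the array of the same number without RA for Zscan4c (by 1.13, 1.22 and 1.09 log2 units), Zscan4d (0.78, 0.65 and 1.04), Usp17la (0.92, 0.47 and 0.83), Tcstv3 (1.31, 1.74 and 0.21), Usp17lc (0.98, 0.33 and 0.09) and Tdpoz4 (0.33, 0.31 and 0.17). These are 6 of 9 genes, against 22.1% of all genes higher in 3 of 3 such comparisons. The groups themselves overlapped for all 9 genes, while those of 19.6% of all genes did not, and none of the 9 passed in the fit by groups (limma, 3.46% of all genes called, 2.05% upward). Changes by group means were 1.14 ± 0.45 for Zscan4c (limma adjusted p = 0.242), 0.82 ± 0.49 for Zscan4d (0.5), 0.74 ± 0.26 for Usp17la (0.174) and 1.09 ± 0.35 for Tcstv3 (0.126). With the array number within the construct as a block, a fit chosen after the data were seen, 4 of the 9 rose: Zscan4c (limma adjusted p = 0.00059), Zscan4d (0.00799), Usp17la (0.0125) and Tcstv3 (0.0343). In that fit 7.32% of all genes were called, 4.44% upward. Without both arrays of number 1 and with no block, only Zscan4c passed (limma adjusted p = 0.0212, with 2.2% of all genes called).

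In shCT cells, the arrays with RA lay above all arrays without RA for Zscan4c (1.23 ± 0.45), Zscan4d (1.11 ± 0.49) and Tcstv3 (0.94 ± 0.35, log2 change and SE), 3 of 9 genes against 10.7% of all genes that did so upward. None of the 9 passed in the limma fit (adjusted p = 0.168, 0.271 and 0.173 for these 3), in which 4.25% of all genes were called, 2.16% upward. Compared by array number, 4 of 9 genes were higher with RA in 3 of 3 comparisons, against 22% of all genes. They were Zscan4c, Zscan4d, Tcstv3 and Usp17la. Zfp352 stood at -0.23 ± 0.32 and Tdpoz1 at -0.37 ± 0.32, with overlapping groups. Leaving out both shLOXL2 arrays of number 1, which lie outside this comparison but enter its estimate of the spread, brought Zscan4c (limma adjusted p = 0.0021) and Zscan4d (0.00795) past the threshold, with 5.27% of all genes called.

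Knockdown of LOXL2 gave no call among the 9 genes in any comparison with limma: with RA and without RA 0% of all genes passed, and on average over both states 0.0541%. Over all 22180 genes, unadjusted p-values under 0.05 numbered 1100 with RA, 1037 without RA and 1490 on average. A share of 0.05 of the genes is expected below that cutoff when no gene differs. Such counts, here and below, are therefore not read as knockdown effects. Zscan4c was higher in shLOXL2 cells by 0.43 ± 0.45 with RA and by 0.52 ± 0.45 without RA (log2, SE), and Zscan4d by 0.45 ± 0.49 and 0.74 ± 0.49. On average over both RA states the exact two-sided p was 0.33 for Zscan4c (0.48 ± 0.32) and 0.28 for Zscan4d (0.59 ± 0.35). Those differences came with the number 1 arrays. Without both of them, Zscan4c stood at -0.10 with RA, -0.02 without RA and -0.06 on average, and Zscan4d at -0.13, 0.14 and 0.01. The other 7 genes had average differences between -0.10 for Zfp352 and 0.45 for Usp17lc, none past the threshold. The RA responses of the constructs did not differ past the threshold for any of the 9 genes, with 0% of all genes called and 652 at an unadjusted p under 0.05. That difference, shLOXL2 minus shCT, was -0.09 ± 0.63 for Zscan4c, -0.29 ± 0.69 for Zscan4d, 0.14 ± 0.49 for Tcstv3 and 0.43 ± 0.37 for Usp17la.

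Other genes of the two-cell-like state followed the same arrays. Of 49 listed, 34 were measured by a cluster of their own, and 22 rose with Zscan4c within groups (limma, 6.51% of all genes called upward) while none fell. Pramel19, of the Prame-like family, rose by 1.86 ± 0.11 per log2 unit of Zscan4c, Zscan4a by 1.12 ± 0.07, Zscan4b by 1.04 ± 0.08 and Zscan4e by 0.93 ± 0.08 (SE, limma adjusted p at most 6.01e-05). The signals of these Zscan4 genes may hold Zscan4c signal, so they may not be separate from it. Pramel19 gave 10.27, 7.08 and 7.04 in shLOXL2 cells with RA, 9.0, 6.30 and 5.89 in shLOXL2 cells without RA, 7.78, 8.09 and 8.5 in shCT cells with RA, and 6.03, 6.54 and 7.32 in shCT cells without RA. The number 1 arrays of shLOXL2 cells were again far above the others of their group. They were the highest of their group in both RA states for 26 of the 34 genes, against 19.8% of all genes. With all arrays, 29 of 34 deviated in the direction of Zscan4c (r above 0, median r 0.84). The median slope was then 0.595, against -0.0462 for all genes. Without both of these arrays 8 rose with Zscan4c and 1, the homeobox gene Obox3, fell, while 5.9% of all genes were called upward. The 8 included Zscan4a, Zscan4b, Zscan4e and Pramel19, with 0.88, 0.96, 0.84 and 1.5 per log2 unit. The list as a whole no longer followed Zscan4c: 16 of the 34 slopes were above 0. Their median was -0.0859, against -0.122 for all genes. With the main axis as a covariate, 9 rose, among them Pramel19 (1.79), Zscan4a (1.22) and Arg2 (1.08), while 0.122% of all genes were called upward. Without both number 1 arrays of shLOXL2 cells, the slope of Arg2 was -0.26 (limma adjusted p = 0.55). Duxf3, the Dux gene on the array, is dim and stood at 0.13 ± 0.15 per log2 unit of Zscan4c, with log2 signals between 2.03 and 3.43 over the 12 arrays.

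**Figure D5:**
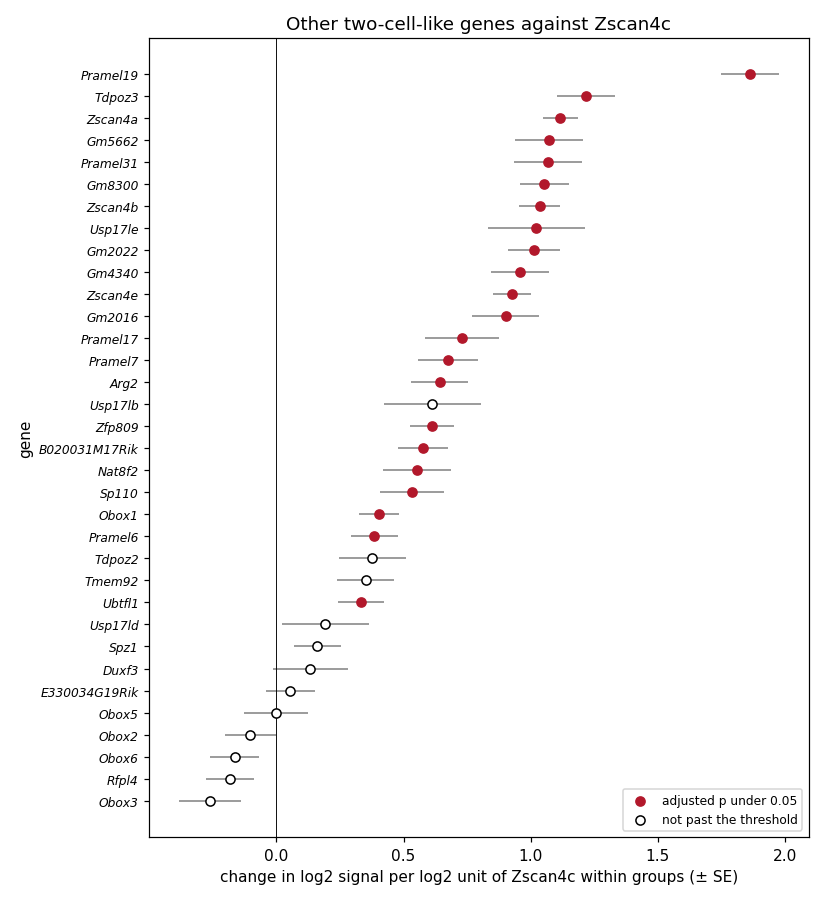
Change in log2 signal per log2 unit of Zscan4c within groups (horizontal axis, ± SE) for 34 other genes of the two-cell-like state; filled points passed the adjusted threshold of 0.05. Of the 34, 22 are filled, all to the right of 0, with Pramel19 at 1.86 farthest out and Obox3 at -0.26 lowest.

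With RA, 7 of these 34 genes rose on average over both constructs and none fell (limma, 5.52% of all genes called upward), and 30 had a change above 0, with a median of 0.56 against -0.01 for all genes. Gm2022 rose by 1.38 ± 0.33 (SE, limma adjusted p = 0.0166), Arg2, a mitochondrial arginase, by 0.95 ± 0.24 (0.0195), Zfp809, a zinc finger silencer of retroviruses, by 0.92 ± 0.21 (0.0131) and Tmem92 by 0.90 ± 0.17 (0.0031). Tmem92 was the single gene of the list called in shCT cells alone (0.98 ± 0.23), and none was called in shLOXL2 cells alone. Without both shLOXL2 arrays of number 1, 18 of 34 rose on average (4.97% of all genes upward), 13 in shCT cells (2.72%) and 4 in shLOXL2 cells (1.08%), and none fell. With construct and number as a fixed block, 16 of 34 rose in shLOXL2 cells (4.44% of all genes) and 20 of 34 on average (8.99%). Knockdown of LOXL2 gave no call among the 34 genes in either RA state or on average.

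Genes known to govern the state were read the same way. A first list of regulators, not all of which favour the state, held 7 measured genes other than Zscan4c: Dppa2, Dppa4, Nelfa, Duxf3, Tbx3, Mir34a and Gata2. None followed Zscan4c within groups past the threshold (6.51% of all genes called upward), and Dppa4 came nearest (0.18 ± 0.07 per log2 unit, limma adjusted p = 0.119). With RA, 3 of 7 rose on average, against 5.52% of all genes called upward. They were Tbx3, a T-box factor, by 0.92 ± 0.11, Gata2 by 0.71 ± 0.18 and Dppa2 by 0.57 ± 0.09 (SE, limma adjusted p at most 0.0203). The count was the same without both number 1 arrays of shLOXL2 cells (4.97% of all genes upward). Dppa2 gave 11.01, 10.87 and 10.996 in shLOXL2 cells with RA, 10.56, 10.32 and 10.23 in shLOXL2 cells without RA, 10.78, 10.69 and 10.65 in shCT cells with RA, and 10.10, 10.26 and 10.12 in shCT cells without RA, with no overlap between RA states. Of all genes, 10.7% did not overlap upward in shCT cells, and 19.6% did not overlap in either direction in shLOXL2 cells. Its partner Dppa4 went the other way with RA on average (-0.31 ± 0.10, SE) and did not pass (limma adjusted p = 0.0721). With the main axis as a covariate Dppa4 was called lower (limma adjusted p = 0.0118).

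Of 28 measured repressors of the state, 6 fell and 1, E2f6, rose with RA on average (4.8% of all genes called downward). L3mbtl2 fell by 0.56 and Pcgf6 by 0.49, both subunits of a variant Polycomb complex, Zfp42 (Rex1) fell by 0.51, and the methylcytosine dioxygenase gene Tet1 fell by 0.59 on the log2 scale (limma adjusted p at most 0.0223). Within groups, 3 of the 28 rose with Zscan4c and 1 fell, against 6.51% of all genes called upward and 4.54% downward. Those that rose were Rif1, a replication timing factor (0.73 ± 0.14 per log2 unit), Mga (0.49 ± 0.10) and Smchd1 (0.41 ± 0.11). Chaf1b, a subunit of chromatin assembly factor 1, fell with it (-0.31 ± 0.06, limma adjusted p = 0.0136). With the main axis as a covariate, Rif1 (0.09), Mga (0.05), Smchd1 (0.00) and Chaf1b (-0.29) did not pass. Without both number 1 arrays of shLOXL2 cells, 6 rose, Rif1 by 1.91 per log2 unit of Zscan4c among them, and 1 fell, while 5.9% of all genes were called upward and 2.57% downward.

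Markers of other cell states were set beside these genes, and their part in the results was not tested. Their counts stand against 5.52% of all genes called upward and 4.8% downward for RA on average, and 6.51% upward and 4.54% downward for the association with Zscan4c. Of 15 pluripotency genes, 9 fell with RA on average, and within groups Nanog rose with Zscan4c (0.41 ± 0.08 per log2 unit) while Prdm14 (-0.31 ± 0.08) and Dppa3 (-0.44 ± 0.11), a maternal factor gene, fell (limma adjusted p at most 0.0266). Without both number 1 arrays of shLOXL2 cells Nanog still passed (0.92, limma adjusted p = 0.035), while Prdm14 (-0.0487, 0.917) and Dppa3 (0.0206, 0.975) did not. With the main axis as a covariate none of these 3 passed (Nanog 0.12, Prdm14 -0.40, Dppa3 -0.73). The mean log2 level of the pluripotency list on the number 1 arrays of shLOXL2 cells was 8.26 with RA, where the group ranged from 8.26 to 8.52, and 8.74 without RA, where it ranged from 8.74 to 8.93. Of 14 oocyte and maternal genes, 2 had means above the array medians and none followed Zscan4c past the threshold. Zp3, a zona pellucida gene, fell with RA by 1.26 on the log2 scale. Of 8 trophectoderm genes, Tfap2c (-0.34 ± 0.07) and Krt8 (-0.28 ± 0.08) fell with Zscan4c, but neither passed without both number 1 arrays of shLOXL2 cells (-0.16 and -0.48, limma adjusted p = 0.655 and 0.254) or with the axis (0.24 and 0.625). Cdx2 rose with RA on average by 0.63 ± 0.13 and Krt18 by 0.44 ± 0.13. Of 8 primitive endoderm genes none followed Zscan4c with all arrays. All 8 fell with it without both number 1 arrays of shLOXL2 cells (median slope -1.47), while 2.57% of all genes were called downward. The sign turned with the main axis as a covariate, where all 8 slopes were above 0 (median 0.55) and none passed. Gata6 rose with RA by 1.63 ± 0.17 and Pdgfra by 0.94 ± 0.24. The mean level of the 8 genes ranged from 6.42 to 7.25 in shCT cells with RA and from 6.06 to 7.15 without RA. In shLOXL2 cells it ranged less widely, from 6.74 to 6.79 with RA and from 6.18 to 6.24 without RA. Of 9 fibroblast genes, Thy1 fell with Zscan4c (-0.35 ± 0.09), but not past the threshold without both number 1 arrays of shLOXL2 cells (-0.0367, limma adjusted p = 0.946) or with the axis (0.155). Pdgfrb rose with RA by 1.28 ± 0.11 on average and was called in both constructs. Their mean levels on the number 1 arrays of shLOXL2 cells were 4.88 with RA and 4.92 without RA, the lowest of each group. Of 8 genes of the p53 response, Mdm2 (0.70 ± 0.11), Ccng1 (0.58 ± 0.12) and Trp53inp1 (0.62 ± 0.14) rose with Zscan4c and Bbc3 (-0.27 ± 0.08) and Sesn2 fell. Without both number 1 arrays of shLOXL2 cells 3 of the 8 rose and none fell. With the main axis as a covariate Mdm2 stood at 0.25, Ccng1 at 0.05 and Trp53inp1 at -0.02, none past the threshold.

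The genes whose deviations were most like the mean of the 9, each scaled to unit SD, were sought over all 22171 other genes. Of these, 71 (0.32%) had an r above 0.9 over the 12 arrays. Gm4340, a predicted gene of the list above, stood at 0.995 and at 0.982 over the 10 arrays without both number 1 arrays of shLOXL2 cells. Predicted and numbered symbols aside, the 8 nearest were Irak3, an inhibitor of Toll-like receptor signalling (r = 0.984, and 0.872 over 10 arrays), Rsph4a, a radial spoke protein of cilia (0.975 and 0.769), Pogz, a heterochromatin-associated zinc finger protein (0.972 and 0.612), Arg2 (0.969 and 0.417), Clmp, an adhesion molecule (0.966 and 0.921), Crtap, which takes part in collagen hydroxylation (0.966 and 0.598), Adgrl3, an adhesion receptor (0.965 and 0.652), and Sulf1, a heparan sulfatase (0.963 and 0.661). Rsph4a gave 6.62, 5.03 and 5.12 in shLOXL2 cells with RA, 5.81, 4.81 and 4.98 in shLOXL2 cells without RA, 5.46, 5.71 and 5.32 in shCT cells with RA, and 4.31, 4.82 and 4.59 in shCT cells without RA. Irak3 gave 8.40, 7.58 and 7.59 in shLOXL2 cells with RA, 8.67, 7.95 and 7.96 in shLOXL2 cells without RA, 7.63, 7.69 and 7.30 in shCT cells with RA, and 7.72, 8.12 and 7.85 in shCT cells without RA. In both genes the number 1 arrays of shLOXL2 cells were the highest of their groups, and in Irak3 the arrays with RA were lower than the same-number arrays without RA in both constructs.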

How the data were processed

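Arrays measured RNA of 12 samples, from 100 ng of total RNA each per the labels' protocols. The authors deposited 1 log2 signal for each transcript cluster and array (lowest 0.567, highest 13.8), and the submitters' processing notes name RMA, limma and R 3.1.1, without roles. Of 41345 clusters, 23521 carried 1 annotated gene, 1814 several and 16010 were unnamed here, and 23328 matched RefSeq. The brightest 1-gene cluster stood for each of 22180 genes. limma 3.58.1 (R 4.3.3, statmod 1.5.0) fitted 1 mean per group over all 12 arrays, with Benjamini-Hochberg adjustment over all genes at 0.05. The association fit added the Zscan4c signal to the group means. Groups came from the titles. The members and lists were chosen with earlier results of these data known. Named genes were the 9 members, up to 4 list genes per comparison by smallest p, and the 8 nearest genes. Fits were tested on simulated data. Same-numbered arrays deviated together within shLOXL2 cells (r = 0.56, 0.25 and 0.22) and less evenly within shCT cells (0.36, 0.04 and 0.63). Between constructs they did not (-0.55 to 0.20). The 3 deviations of a gene within a group sum to 0, so the 3 r values of a construct depend on each other. They do not by themselves show a pairing. The blocks of construct and number paired same-numbered arrays within both constructs, a pairing that the labels do not state. Leaving out both shLOXL2 arrays of number 1 was chosen after seeing the data. Other alternatives covered normalization, summaries of clusters, dim genes, blocks, the main axis and single arrays.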

Additional observations from a re-analysis of the deposited data

How the results depend on the processing

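The counts of the 9 genes called were recomputed under other settings. Where a percentage stands beside a count, it is the share of all genes called upward in the same setting. That share shifted with the setting, so counts without a percentage are not read against all genes. For RA in shCT cells, 0 were called in the fit by groups (2.16%) and 2 with the main axis as a covariate (5.83%). There were 2 with construct and number as a fixed block (4.22%) and 2 without both shLOXL2 arrays of number 1 (2.72%). A random block of construct and number gave 1, only the groups compared gave 2, and leaving out any single array gave 0. For RA in shLOXL2 cells, against 0 (2.05%), the counts were 2 with the axis (6.06%), 4 with the fixed block (4.44%) and 1 without both arrays (1.08%). They were 3 with the random block and 0 to 1 with single arrays left out. For RA on average, against 2 (5.52%), they were 4 with the axis (11.4%), 4 with the fixed block (8.99%) and 4 with the random block. They were 0 over all transcript clusters, 1 with trend and robust moderation, and 1 of the 2 genes left without genes dimmer than the median. With single arrays left out they were 1 to 4 (4 without number 1 of shLOXL2 cells without RA). For the association with Zscan4c, against 5 (6.51%), they were 2 with Zfp352 in place of Zscan4c (2.09%) and 3 over all transcript clusters. With the axis there were 0 (0.122%), and the median slope of the 8 was then 0.71, against 0.49. There was 1 without both arrays (downward, as were 2.57% of all genes), 1 of 1 gene left without dim genes, and 1 to 5 with single arrays left out. A plain replicate block, pairing array numbers across constructs, gave 0 in shCT cells, 0 in shLOXL2 cells, 2 on average and 5 for the association (4 upward, without Tcstv3 at adjusted p = 0.108). The knockdown comparisons and the difference between RA responses stayed at 0 in every setting run. The median r of pairs, 0.569, was 0.438 with the replicate block, 0.0323 without both arrays, 0.949 for the 1 pair left without dim genes, and 0.272 to 0.641 with single arrays left out. The cause of these shifts was not tested.

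Some values turned sign. Without both arrays, the knockdown change of Zscan4c was -0.0198 without RA, -0.10 with RA and -0.0604 on average, and that of Zscan4d with RA was -0.13. With single arrays left out, these ranged from -0.0198 to 0.82 for Zscan4c without RA, from -0.10 to 0.70 for Zscan4c with RA and from -0.13 to 0.80 for Zscan4d with RA, lowest without the number 1 shLOXL2 array of that RA state. The RA change of Usp17lc in shLOXL2 cells then ranged from -0.00497 to 0.76. The association of Tcstv1 was 0.0218 after further quantile normalization, 0.0648 with the replicate block, 0.49 without both arrays and -0.15 to 0.0817 with single arrays left out. That of Tdpoz1 was 0.21 with the axis, and that of Tdpoz4 was -0.37 without both arrays. Signal over background was not set here and limits the dim genes.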
